A study of Mus musculus with 2 samples.

Results

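The genes described here are 9 mouse genes that make, recycle or spend reducing power: Gclc, Gclm, Slc7a11, Gsr, Txnrd1, Srxn1, Prdx1, Nqo1 and Hmox1. They were taken by name from the 16416 genes of a single-cell table of engrafted tumors, and all 9 were found. Tumors had grown in mice carrying HSF1 S303/7A, in which serines 303 and 307 of heat shock factor 1 (HSF1, the main transcription factor of the heat shock response) are changed to alanine, or in wild-type (WT) mice. The labels and design text do not state age, sex or the engrafted tumor line. Each genotype was profiled as 1 droplet library, of 4802 cells for S303/7A and 6654 cells for WT. The design text speaks of pooling tumors of 4 mice, so no library can be split by mouse. Live CD45+ and CD45- cells had been mixed 5 to 1 after sorting, which sets the shares of immune and tumor cells. With 1 library per genotype there is no replicate and no test, and a difference between genotypes cannot be told apart from a difference between libraries.

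Glutathione is a small thiol that cells oxidize when they remove peroxides. Slc7a11 imports the cystine it is built from, Gclc and Gclm form the enzyme of its first and rate-limiting step, and Gsr returns oxidized glutathione to its reduced form with NADPH. The thioredoxin branch works beside it: Prdx1 reduces peroxides, Srxn1 restores peroxiredoxins that were over-oxidized, and Txnrd1 recharges thioredoxin. The transcription factor Nrf2 (gene Nfe2l2) is held down by Keap1 in resting cells and, once released, binds antioxidant response elements of these genes together with small Maf proteins. Nqo1, a quinone reductase, is a widely used readout of Nrf2, and Hmox1, which breaks down heme, is induced by Nrf2, by heme through loss of Bach1, and by heat shock factors. In tumor macrophages Hmox1 is also tied to the uptake of red cells and of dying cells.

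Promoter windows of RefSeq (build GRCm38.p6) were held for 6 of the 9 genes, and the 4 with a motif match in the bases before the start are shown because the genes are commonly grouped by this element. Capitals mark the core of the antioxidant response element, TGACNNNGC, on either strand, and the AP-1 site TGAGTCA. Each line holds the 250 bases before the start on the plus strand: Gclm at chr3:122245307-122245556, Txnrd1 (the second of its start sites) at chr10:82858956-82859205, Srxn1 at chr2:152105274-152105523 and Prdx1 at chr4:116685349-116685598.
Gclm: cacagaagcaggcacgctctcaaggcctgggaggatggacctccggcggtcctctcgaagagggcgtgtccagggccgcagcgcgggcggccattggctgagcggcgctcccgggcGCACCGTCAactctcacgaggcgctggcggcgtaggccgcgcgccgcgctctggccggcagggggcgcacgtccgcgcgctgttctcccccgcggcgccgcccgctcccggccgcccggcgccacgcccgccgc
Txnrd1: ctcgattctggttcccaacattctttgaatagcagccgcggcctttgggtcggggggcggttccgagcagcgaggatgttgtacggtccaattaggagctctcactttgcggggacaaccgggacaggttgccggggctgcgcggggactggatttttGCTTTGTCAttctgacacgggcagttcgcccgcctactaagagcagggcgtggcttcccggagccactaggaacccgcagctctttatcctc
Srxn1: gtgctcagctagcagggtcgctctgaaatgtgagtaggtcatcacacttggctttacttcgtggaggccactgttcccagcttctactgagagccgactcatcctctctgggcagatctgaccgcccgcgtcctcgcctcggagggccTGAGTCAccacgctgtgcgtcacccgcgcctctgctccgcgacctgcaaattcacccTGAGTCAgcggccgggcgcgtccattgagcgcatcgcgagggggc
Prdx1: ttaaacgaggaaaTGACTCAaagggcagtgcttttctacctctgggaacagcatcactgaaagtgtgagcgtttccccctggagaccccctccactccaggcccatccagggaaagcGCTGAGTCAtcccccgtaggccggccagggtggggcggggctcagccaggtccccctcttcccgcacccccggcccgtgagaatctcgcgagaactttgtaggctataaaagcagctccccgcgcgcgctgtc
The element's match began 134 bases before the start in Gclm, 92 in Txnrd1 and 133 in Prdx1, where it overlapped an AP-1 match. In Srxn1 the AP-1 letters began 102 and 45 bases before the start, and the element's letters lay just after the start, outside the printed bases. Of all 32851 promoter windows of 300 bases, 12.39% held the element's core and 5.202% held the AP-1 site. The windows of Nqo1 and Slc7a11 and the other windows of Txnrd1 held neither motif. Gclc, Gsr and Hmox1 are named only.

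Levels below are UMIs (unique molecular identifiers, each marking 1 captured RNA molecule) of a gene summed over the cells of a deposited cluster, per 10000 UMIs of that cluster, in each library. They serve to compare clusters and libraries for 1 gene, not genes with each other. Comparisons cover the 17 clusters that hold 50 or more cells in both libraries: tumor C01, C04, C08 and C14, stromal C15, macrophage C02, C03, C05, C09 and C13, monocyte C07, dendritic C16 and C17, NK C10, CD8 T C06 and C11 and regulatory T C12. A ratio is S303/7A over WT, with an exact 95% interval that covers counting error only, and a gene counts as higher or lower in S303/7A at a ratio of at least 1.5 or at most 1/1.5, given at least 20 UMIs over both libraries. Total UMIs were 72802161 in S303/7A and 87075636 in WT, and cells were deeper in S303/7A (median 13028 UMIs per cell against 7698 in WT). Summed markers of macrophages were higher in S303/7A in 16 of the 17 clusters, those of other cell types included: NK cells carried 12.5 per 10000 in S303/7A and 4.65 in WT, and the exception was stromal C15 with 3.77 in S303/7A and 10.4 in WT. Summed monocyte markers were lower in S303/7A in 16 of the 17 clusters, NK cells included (18.4 in S303/7A and 30.7 in WT), and tumor cluster C08 was the exception. Red cell markers in the compared clusters were at most 0.141 in S303/7A and 0.0873 in WT outside C09 (176 in S303/7A and 0.0509 in WT) and C11 (14.7 in S303/7A and 0.0193 in WT). The part of these RNAs in the results below was not tested. Hsf1 RNA does not check the labels, since the mutation changes amino acids only.

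**Figure D1:**
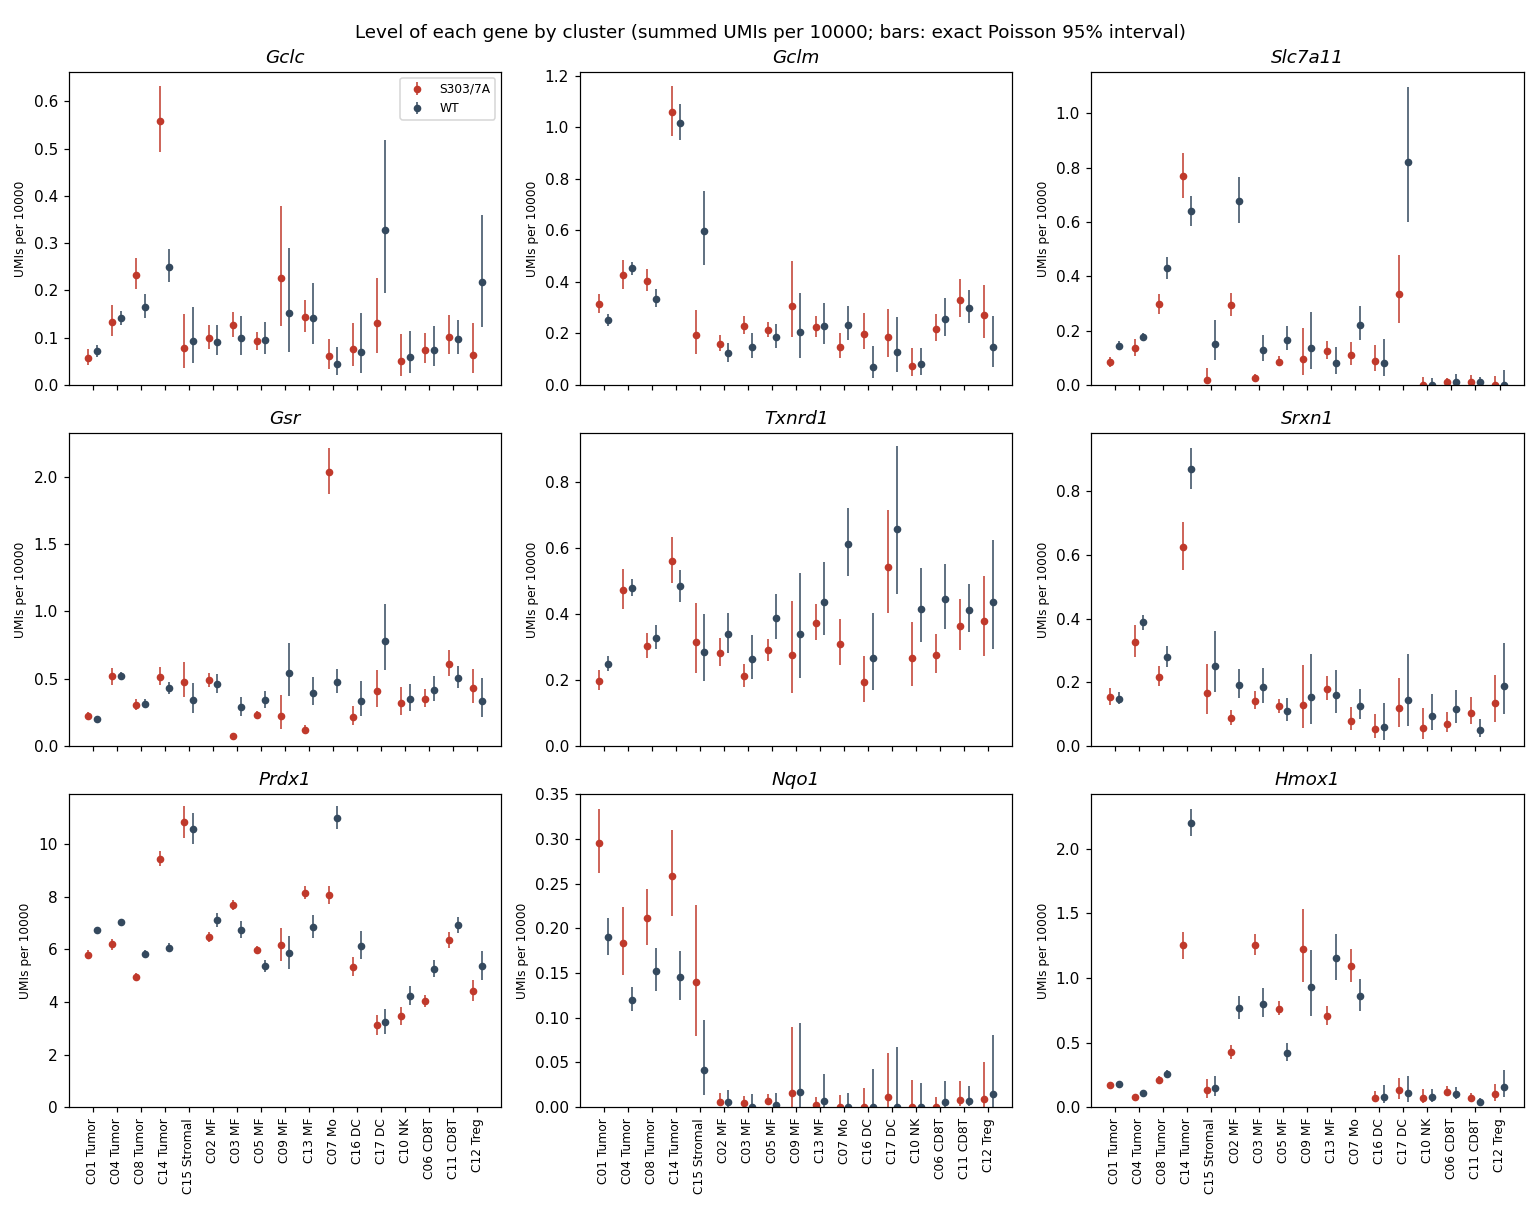
Level of each of the 9 genes (summed UMIs per 10000, vertical axis) in the 17 compared clusters (horizontal axis), with S303/7A (red) left of WT (dark) and exact Poisson 95% intervals. Nqo1 is near 0 outside tumor and stromal clusters, Gsr stands out in S303/7A monocytes at 2.04, and tumor cluster C14 leads for Gclm and Srxn1 in both libraries.

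Across the 153 pairs of gene and cluster, 129 reached 20 UMIs. Of these, 16 (12.4%) were higher in S303/7A, where 9.79% of all gene and cluster pairs were, and 28 (21.7%) were lower, where 8.85% of all pairs were. The members did not share 1 direction: 52 ratios lay above 1 and 77 below, and of the 44 past the fold, 33 had an interval that left out 1. Each gene is given in turn, by its role.

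Slc7a11, the cystine carrier of the glutathione route (chr3:49892526-50443614, minus strand), was the member most often lower. Of the 12 clusters that reached the minimum, it was lower in S303/7A in 7, with ratios of 0.115 to 0.576. In macrophages C02 it stood at 0.295 per 10000 in S303/7A (191 UMIs) and 0.679 in WT (255 UMIs), a ratio of 0.434 (0.358 to 0.526). In macrophages C03 it stood at 0.0252 in S303/7A (18 UMIs) and 0.130 in WT (33 UMIs), a ratio of 0.194 (0.103 to 0.355) that was 0.582 as a mean over cells with a pseudocount of 0.1 per 10000. Macrophages C05 had 0.0849 in S303/7A and 0.167 in WT (ratio 0.510). In dendritic cluster C17 the level was 0.336 in S303/7A (31 UMIs) and 0.821 in WT (45 UMIs), a ratio of 0.409 (0.250 to 0.661). In stromal cluster C15 only 2 UMIs were seen in S303/7A, against 18 in WT, and the ratio of 0.115 was 0.653 as that mean over cells. The ratios of 0.495 in monocytes and 0.576 in tumor cluster C01 no longer passed the fold as means over cells with a pseudocount of 0.1 (0.713 and 0.759). With a pseudocount of 0.01 the means over cells stayed past the fold, at 0.5935 in monocytes and 0.614 in C01. They were 0.281 in C03 and 0.418 in C15 with that smaller pseudocount. Tumor cluster C14 went the other way without passing the fold, with 0.768 in S303/7A and 0.639 in WT, and macrophages C13 had a ratio of 1.55 whose interval (0.831 to 3.16) held 1.

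Across cell types Slc7a11 RNA was mostly myeloid and tumor RNA, and stromal C15 had 0.0174 per 10000 in S303/7A and 0.151 in WT. NK cells (C10) and regulatory T cells (C12) had 0 UMIs in both libraries, which in NK cells allows up to 0.0249 per 10000 in S303/7A and 0.0219 in WT. CD8 T clusters C06 and C11 held 2 or 3 UMIs in each library. The highest level lay in the small cluster C18 (41 cells in S303/7A and 39 in WT), whose summed neutrophil markers were 219.8 per 10000 in S303/7A and 232 in WT. There Slc7a11 stood at 1.72 in S303/7A (32 UMIs) and 3.57 in WT (35 UMIs). C18 lies below the minimum of cells and was not among the compared clusters. Of 5214 genes considered, the patterns most like that of Slc7a11 over 22 clusters were those of Ptgs2 (cyclooxygenase 2, r = 0.895) and Lcn2 (lipocalin 2, r = 0.816), both of which peaked in C18 in S303/7A.

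Gclc and Gclm are the catalytic and the modifier subunit of glutamate cysteine ligase (chr9:77754535-77794485 and chr3:122245557-122270732, both plus strand). Their ratios differed in tumor cluster C14. Gclm stood at 1.06 in S303/7A and 1.02 in WT there, above every other compared cluster of its library, with a ratio of 1.04 (0.928 to 1.17). With each cell thinned to 1000 UMIs, which leaves few UMIs, the Gclm ratio in C14 was 0.510, at levels of 0.662 in S303/7A and 1.297 in WT. Gclc in the same cluster was 0.558 in S303/7A (253 UMIs) and 0.250 in WT (201 UMIs), a ratio of 2.23 (1.85 to 2.70). C14 was the highest Gclc level in S303/7A, apart from the next (C08, 0.233), whereas in WT dendritic cluster C17 (0.328), C14 and regulatory T cells (0.218) had overlapping intervals. The pair of subunits thus differed in C14: the catalytic one was higher in S303/7A and the modifier was near equal over all UMIs. Gclc was also above 1 in tumor cluster C08 (0.233 in S303/7A and 0.166 in WT, ratio 1.41), and below the fold in regulatory T cells, on 7 UMIs in S303/7A and 15 in WT (ratio 0.290, upper bound 0.756). In dendritic cluster C17 Gclc had 12 UMIs in S303/7A and 18 in WT, and its ratio of 0.396 became 0.678 without the cells of highest doublet score. Over the 15 clusters that reached the minimum, Gclc was higher in 1 and lower in 2.

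Gclm was higher in S303/7A in 4 of 17 clusters and lower in 2. Dendritic cluster C16 had 0.199 in S303/7A (34 UMIs) and 0.0699 in WT (6 UMIs), a ratio of 2.85 (1.18 to 8.31) that was 1.72 as a mean over cells with a pseudocount of 0.1. Macrophages C03 had 0.229 in S303/7A and 0.146 in WT (ratio 1.58, interval 1.10 to 2.32), which became 1.36 as a mean over cells with a pseudocount of 0.1. The ratios of 1.87 in regulatory T cells and 1.51 in macrophages C09, where red cell markers also differed, had intervals that held 1. Stromal C15 was lower, with 0.192 in S303/7A (22 UMIs) and 0.597 in WT (71 UMIs), and 1 WT cell held 38 of the 71. Other markers differed in the same cluster, endothelial ones with 4.79 in S303/7A and 1.98 in WT and mast cell ones with 0.0436 in S303/7A and 1.41 in WT, and their part in the C15 ratios of Gclm, Slc7a11 and Nqo1 was not tested. The Gclm ratio of 0.321 was 0.599 without the cell of most Gclm UMIs in each library. The monocyte ratio of 0.629 likewise became 0.785. A gene with a pattern like that of Gclm over clusters was Lars (a leucyl-tRNA synthetase, r = 0.877), and those most like Gclc were Ddit3 (the stress factor CHOP, r = 0.689) and 5430416N02Rik (r = 0.667).

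**Figure D2:**
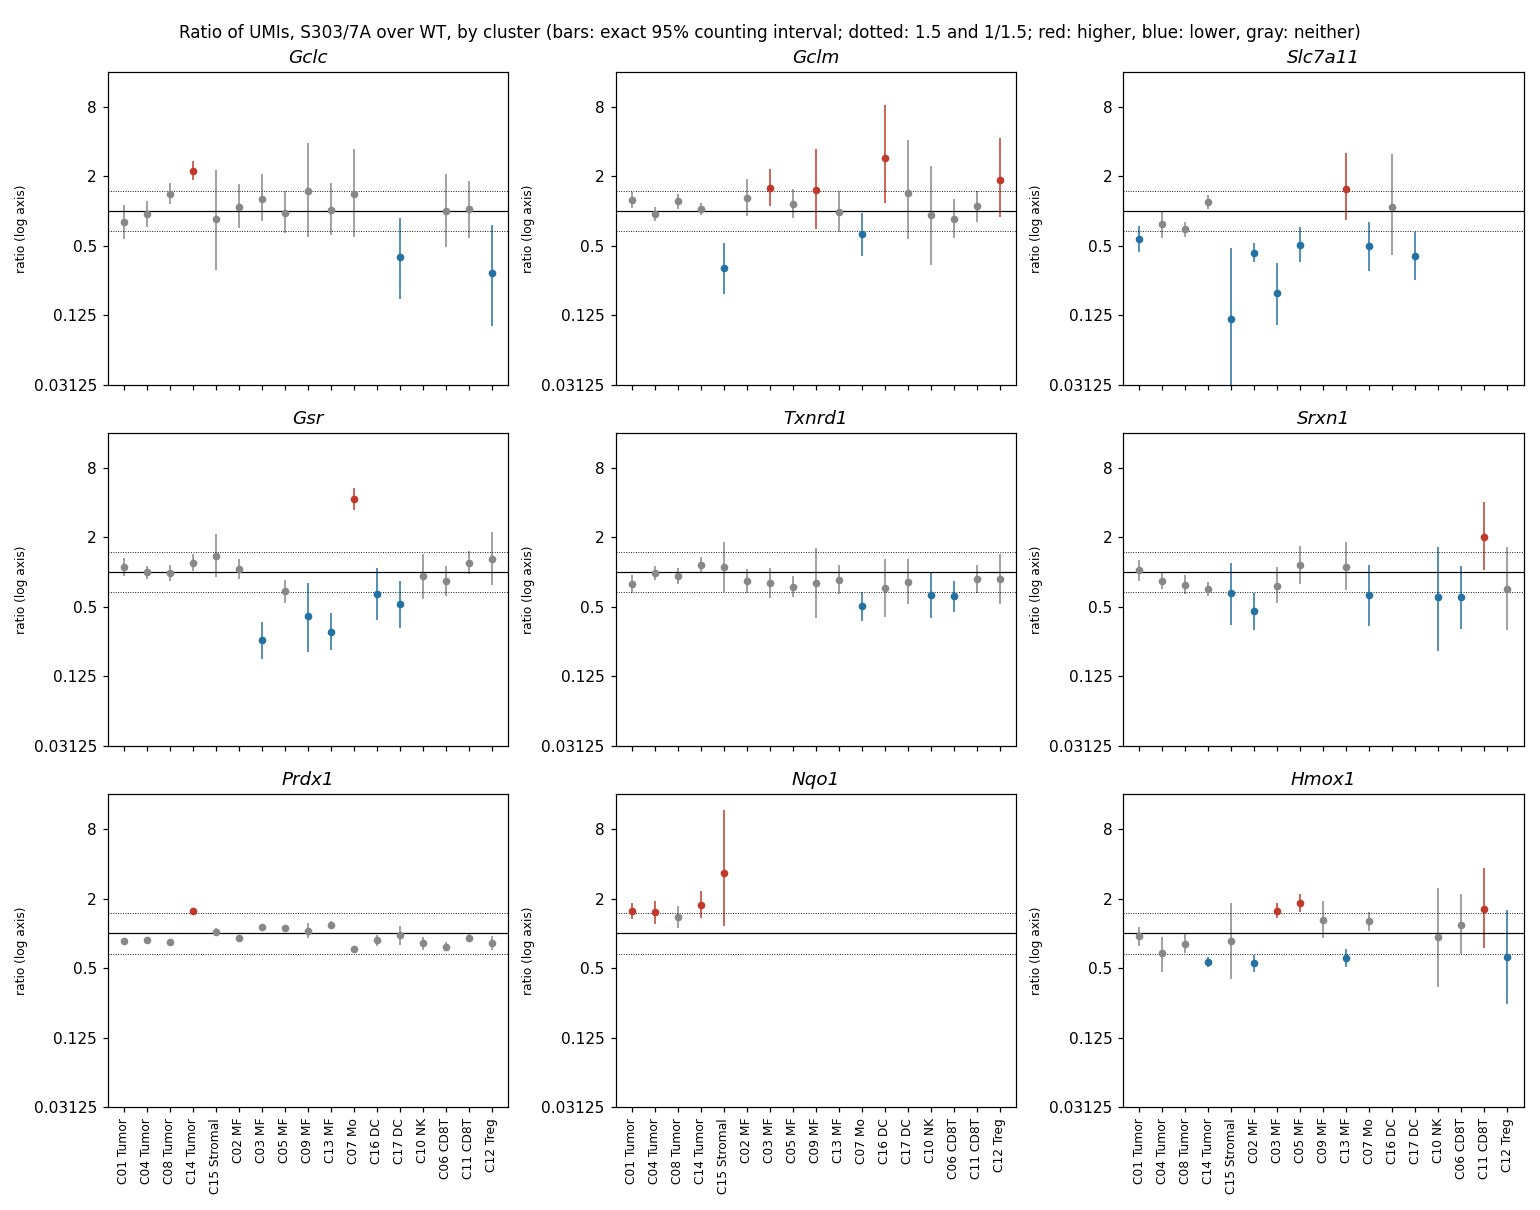
Ratio of UMIs, S303/7A over WT (log axis), for each gene and each compared cluster with at least 20 UMIs, with exact 95% counting intervals, and dotted lines at 1.5 and 1/1.5. Gsr reaches 4.28 in monocytes and 0.258 in macrophages C03, Slc7a11 lies mostly below 1, and Nqo1 lies above 1 in the 5 clusters shown.

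Gsr, glutathione reductase (chr8:33652523-33698163, plus strand), had the largest ratio of any member. In monocytes (C07; 267 cells in S303/7A and 519 in WT) it stood at 2.04 per 10000 in S303/7A (541 UMIs) and 0.476 in WT (110 UMIs), a ratio of 4.28 (3.48 to 5.31) that was 7.33 with each cell thinned to 1000 UMIs. The S303/7A level was above that of every other compared cluster of its library, and the next was CD8 T cluster C11 with 0.612. In WT the monocyte level did not stand out: it lay among those of C04, C11, C02 and C14, whose intervals overlapped. In C07, 8 members reached the minimum, of which 1 was higher and 4 lower in S303/7A, where 18% of all genes were higher and 9% lower.

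The distribution over cells was uneven. At least 1 Gsr UMI was seen in 46.8% of S303/7A monocytes and 17.9% of WT monocytes, which differ in depth (median 9020 UMIs per cell in S303/7A and 4292 in WT). With each cell thinned to 1000 UMIs the shares were 19.1% of 267 cells in S303/7A and 3.47% of 518 cells in WT, and no compared cluster lacked Gsr that could serve as background. At least 6 Gsr UMIs were seen in 39 S303/7A monocytes and in 0 WT monocytes, with highest counts of 16 in S303/7A and 3 in WT. The 75 S303/7A monocytes with at least 3 Gsr UMIs and the 142 with 0 differed in other genes, given as a description of cells chosen by their Gsr count. Cells with at least 3 had summed macrophage markers of 25.5 per 10000 (C1qa 1.45), and those with 0 had 145 (C1qa 35.5). Summed monocyte markers were 141 in cells with at least 3 and 86.4 in cells with 0. Among them Plac8 was 110 in cells with at least 3 and 53.8 in cells with 0. Chil3 was 7.14 in cells with at least 3 and 1.00 in cells with 0, and Ccr2 was 7.08 and 4.04. Ly6c2 alone of the listed monocyte markers went the other way, with 16.1 in cells with at least 3 and 27.6 in cells with 0.

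C07 was also split by complement genes, which macrophages express. The threshold, 10 summed UMIs of C1qa, C1qb and C1qc per 10000 in a cell, was set after values were seen. Below it lay 149 S303/7A cells (55.8% of C07) and 336 WT cells (64.7%), where Gsr stood at 3.82 in S303/7A (485 UMIs) and 0.559 in WT (83 UMIs), a ratio of 6.84 (5.41 to 8.74). At or above it Gsr stood at 0.404 in S303/7A (56 UMIs) and 0.327 in WT (27 UMIs), a ratio of 1.24 (0.768 to 2.04). Most of the Gsr UMIs of S303/7A monocytes thus lay in cells low in C1q. Over the whole of C07, summed macrophage markers were 102 in S303/7A and 45.4 in WT, and summed monocyte markers 103 in S303/7A and 202 in WT, the same directions as in NK cells. Their part in the pooled ratio was not tested. Of the 4 neighbouring genes looked up on chromosome 8, Gtf2e2 had a ratio of 0.801 and Ubxn8 of 0.827 in C07, with intervals that held 1. Rbpms had 16 UMIs in S303/7A and 9 in WT, a ratio of 1.55 (0.644 to 3.97), and Ppp2cb lay under the minimum with 7 UMIs in S303/7A and 9 in WT.

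**Figure D3:**
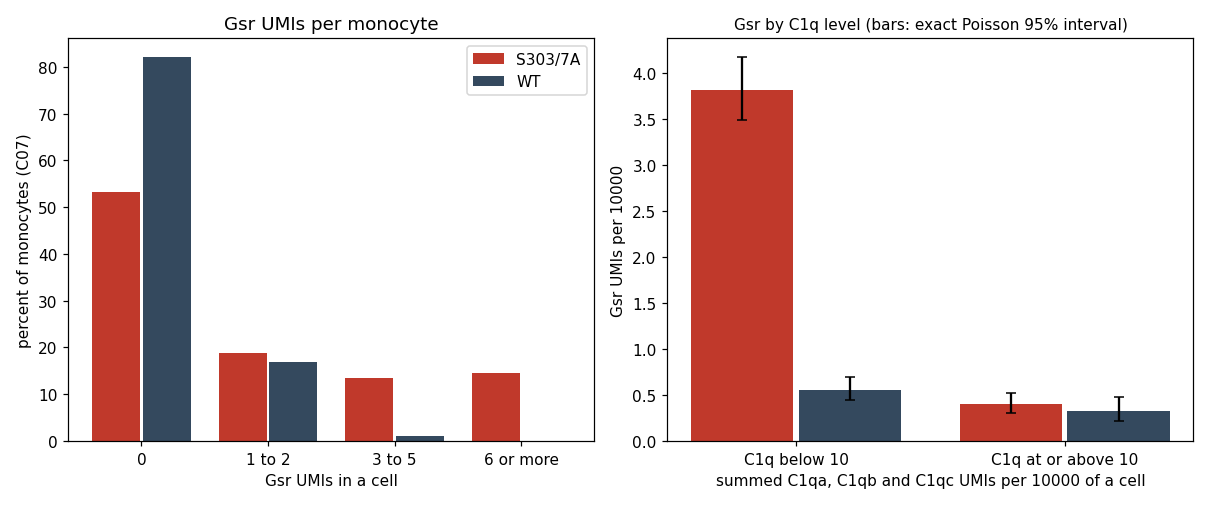
Left: percent of monocytes (C07) by Gsr UMIs per cell, S303/7A (red) beside WT (dark); 39 S303/7A cells and 0 WT cells hold 6 or more. Right: Gsr UMIs per 10000 in monocytes below and at or above 10 summed C1q UMIs per 10000, with exact Poisson 95% intervals; below it the level is 3.82 in S303/7A and 0.559 in WT.

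Neutrophil cluster C18 showed the same direction on few cells and was picked after its values were seen. Gsr had 42 UMIs in 41 S303/7A cells (2.26 per 10000) and 2 UMIs in 39 WT cells (0.204), a ratio of 11.1 (2.88 to 94.4), at median depths of 1280 UMIs per cell in S303/7A and 1125 in WT. Summed macrophage markers there were 283 per 10000 in S303/7A and 129 in WT, and their part in the ratio was not tested. Macrophage clusters C03, C13 and C09 went the other way. Gsr in C03 was 0.0741 in S303/7A (53 UMIs) and 0.287 in WT (73 UMIs), a ratio of 0.258 (0.178 to 0.373) that was 0.516 as a mean over cells with a pseudocount of 0.1. In C13 it was 0.121 in S303/7A and 0.396 in WT (ratio 0.306, interval 0.211 to 0.445), and in C09, the cluster with red cell RNA, the ratio was 0.416. Among the chromosome 8 neighbours, Ubxn8 was also lower in C03 (0.0853 in S303/7A and 0.185 in WT, ratio 0.461, interval 0.310 to 0.690). Ubxn8 in C13 (0.612) and Ppp2cb in C03 (0.485) had intervals that held 1, and Gtf2e2 had a ratio of 1.13 in C03. C05 had 0.232 in S303/7A and 0.339 in WT, just inside the fold at 0.684, and C02 was level at 0.489 in S303/7A and 0.460 in WT. Dendritic clusters were also lower, C17 with 0.411 in S303/7A and 0.784 in WT (ratio 0.525) and C16 with a ratio of 0.642 whose interval held 1. In the tumor clusters Gsr ratios were 0.981 to 1.20, and in the lymphocyte clusters 0.841 to 1.30. The genes most like Gsr were Lrrfip1 (r = 0.676) and Sod2 (mitochondrial superoxide dismutase, r = 0.648).

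Txnrd1, the thioredoxin reductase of the cytosol (chr10:82833951-82897712, plus strand), had ratios from 0.506 to 1.16, which lay below 1 in 15 of 17 clusters. Monocytes had 0.309 in S303/7A (82 UMIs) and 0.610 in WT (141 UMIs), a ratio of 0.506 (0.381 to 0.669), the opposite side from Gsr in the same cluster. That difference, too, lay in the cells low in C1q, with 0.370 in S303/7A and 0.822 in WT, whereas cells at or above the C1q threshold had 0.253 in S303/7A and 0.230 in WT. CD8 T cluster C06 had 0.276 in S303/7A and 0.445 in WT (ratio 0.619), and NK cells 0.265 in S303/7A and 0.416 in WT (ratio 0.638, upper bound 1.00). As means over cells with a pseudocount of 0.1 the C06 and NK ratios were 0.677 and 0.713, and with cells thinned to 1000 UMIs the NK ratio was 0.322. The highest levels lay in C14 of S303/7A (0.561) and C17 of WT (0.657), neither apart from its neighbours in order. Its most alike genes were Eif4e2 (r = 0.831) and Mtf1 (the metal-responsive factor, r = 0.815).

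Srxn1, sulfiredoxin (chr2:152105516-152111376, plus strand), led in tumor cluster C14 in both libraries, at 0.625 in S303/7A and 0.869 in WT, and second stood tumor cluster C04 at 0.328 in S303/7A and 0.388 in WT. Its ratio was below 1 in C04 (0.845), C08 (0.778) and C14 (0.718), with intervals that left out 1 but short of the fold. Thinned to 1000 UMIs per cell, C14 had 0.662 in S303/7A and 0.502 in WT, a ratio above 1 (1.32), and the C04 ratio was 0.255. Both thinned ratios rest on few UMIs, whereas C14 held 283 Srxn1 UMIs in S303/7A and 699 in WT before thinning. Macrophages C02 were lower, with 0.0880 in S303/7A (57 UMIs) and 0.192 in WT (72 UMIs), a ratio of 0.459 (0.319 to 0.659). The only higher ratio was in CD8 T cluster C11, on 26 UMIs in S303/7A and 16 in WT (2.03, interval 1.05 to 4.05), and it became 1.41 as a mean over cells with a pseudocount of 0.1. Red cell markers in C11 were 14.7 in S303/7A and 0.0193 in WT, and their part in that ratio was not tested. The lower ratios in C06, C07, C10 and C15 (0.604 to 0.657) had intervals that held 1. As means over cells with a pseudocount of 0.1 they were 0.735 to 0.931. With a pseudocount of 0.01 the mean over cells was 0.581 in C06, still past the fold, and 0.880 in C07. The most alike genes were Ano6 (r = 0.869) and the metallothionein Mt2 (r = 0.856).

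Prdx1, peroxiredoxin 1 (chr4:116685544-116700822, plus strand), was seen in every cluster, so its counting intervals were narrow. Its ratios ran from 0.734 to 1.56. The only one past the fold was tumor cluster C14, with 9.44 per 10000 in S303/7A (4279 UMIs) and 6.06 in WT (4869 UMIs), a ratio of 1.56 (1.496 to 1.625). In S303/7A 1 cell of C14 held 436 of those UMIs, and without the cell of most Prdx1 UMIs in each library the ratio was 1.48, and thinned to 1000 UMIs per cell it was 1.22. The other tumor clusters went the other way, with ratios of 0.845 to 0.882. Macrophages C03, C05 and C13 had ratios of 1.11 to 1.19 and C02 one of 0.910, each with an interval that left out 1, and C09 one of 1.05 whose interval held 1. Monocytes had 8.06 in S303/7A and 10.99 in WT (0.734). Its most alike genes were Dbi (r = 0.757) and Commd1 (r = 0.729).

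Nqo1 (chr8:107388225-107403206, minus strand) was almost wholly a gene of the CD45- cells. Monocytes, NK cells and dendritic cluster C16 had 0 UMIs in both libraries, which in monocytes allows up to 0.0113 per 10000 in S303/7A and 0.0130 in WT. No immune cluster held more than 7 UMIs in a library. In all 5 clusters with enough UMIs it was above 1, and in 4 it passed the fold. Tumor cluster C01 had 0.296 in S303/7A (268 UMIs) and 0.190 in WT (330 UMIs), a ratio of 1.56 (1.32 to 1.84). C04 had 0.183 in S303/7A and 0.120 in WT (1.52, interval 1.20 to 1.92), C14 had 0.258 in S303/7A and 0.146 in WT (1.77, 1.36 to 2.31), and C08 had 0.211 in S303/7A and 0.152 in WT (1.39, 1.12 to 1.73). In stromal cells it had 16 UMIs in S303/7A and 5 in WT, a ratio of 3.32 (1.16 to 11.6) that was 1.82 as a mean over cells with a pseudocount of 0.1, in a cluster where the median log2 ratio of all genes was -0.19. Over the whole tumor class the level was 0.242 in S303/7A and 0.148 in WT, a ratio of 1.63 (1.47 to 1.80).

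The C01 and C04 ratios lie close to the fold: without the cell of most Nqo1 UMIs in each library they were 1.48 and 1.39. As means over cells with a pseudocount of 0.1 they were 1.35 and 1.30. The tumor cells carry deposited copy number groups, of which CNV1 held 50 or more cells in WT alone. In C01, group CNV2 had 0.242 in S303/7A and 0.142 in WT, and group CNV3 had 0.369 in S303/7A and 0.247 in WT. Macrophage markers were low in tumor clusters, with sums of 2.85 to 3.94 per 10000 in S303/7A and 0.902 to 1.66 in WT, and macrophages held Nqo1 at 0.0161 per 10000 or less in S303/7A and 0.0170 or less in WT. The genes most like Nqo1 were Rbfox2 (r = 0.992) and Prrx1 (a mesenchymal homeobox factor, r = 0.991), both highest in C01.

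Hmox1 (chr8:75093621-75100589, plus strand) was a gene of macrophages, monocytes and tumor cluster C14, and its direction differed among macrophage clusters. In C03 it stood at 1.26 in S303/7A (900 UMIs) and 0.802 in WT (204 UMIs), a ratio of 1.57 (1.35 to 1.84), and in C05 at 0.763 in S303/7A and 0.419 in WT, a ratio of 1.82 (1.52 to 2.19). In C02 it was lower, with 0.424 in S303/7A (275 UMIs) and 0.769 in WT (289 UMIs), a ratio of 0.552 (0.466 to 0.653). The C05 and C02 ratios stayed past the fold under each alternative that gave a value, the C02 ratio being 0.293 with cells thinned to 1000 UMIs. The C03 ratio was 1.47 as a mean over cells with a pseudocount of 0.1 and 1.46 thinned. In C13 the ratio of 0.612 rested on 1 WT cell that held 77 of 172 UMIs, and it was 1.07 without the cell of most Hmox1 UMIs in each library. Summed macrophage markers differed in all of these: 179 in S303/7A and 123 in WT in C02, 439 in S303/7A and 257 in WT in C03, and 228 in S303/7A and 115 in WT in C05. Their part in the Hmox1 ratios was not tested.

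In C14 Hmox1 was 1.25 in S303/7A (567 UMIs) and 2.20 in WT (1771 UMIs), a ratio of 0.568 (0.516 to 0.625). The RNA was held by few cells: the top 10% of cells held 67.4% of the Hmox1 UMIs in S303/7A and 84.1% in WT, with up to 71 UMIs in a cell in S303/7A and 294 in WT. At least 1 UMI was seen in 68.4% of S303/7A cells and 59.8% of WT cells at median depths of 32884 UMIs in S303/7A and 33231 in WT, against 4.64% of S303/7A and 2.80% of WT NK cells. In C14 the share of cells with Hmox1 was thus higher in S303/7A and its summed level lower, and the difference in share was not tested. In monocytes the ratio of 1.27 also rested on 1 cell, which held 157 of the 290 UMIs of S303/7A, and was 0.753 without the cell of most Hmox1 UMIs in each library. Lymphocyte levels were at most 0.119 in S303/7A and 0.160 in WT. The genes most like Hmox1 were Rnf149 (r = 0.855) and Rin2 (r = 0.839).

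By cluster, C14 was the tumor cluster in which most members were past the fold. Of 9 members, 3 (Gclc, Prdx1 and Nqo1) were higher and 1 (Hmox1) lower in S303/7A, where 7.48% of all genes were higher and 7.4% lower. The median log2 ratio was 0.26 over the members and -0.01 over all genes. Summed tumor or fibroblast markers in C14 were 105 in S303/7A and 45.5 in WT, while the other tumor clusters differed less, with 50.4 to 197 in S303/7A and 44.1 to 184 in WT, and the part of this in the C14 ratios was not tested. In stromal C15, 1 member was higher and 3 lower, where 6.66% of all genes were higher and 27.3% lower, so the lower count is close to the background. In macrophages C02, 0 members were higher and 3 of 8 lower, where 12.9% of all genes were higher and 8.95% lower. Summed monocyte markers in C02 were 24.8 in S303/7A and 87.1 in WT, and their part in the lower Slc7a11, Srxn1 and Hmox1 was not tested. In dendritic cluster C17, 0 were higher and 3 of 6 lower, where 10.8% of all genes were higher and 12.5% lower.

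**Figure D4:**
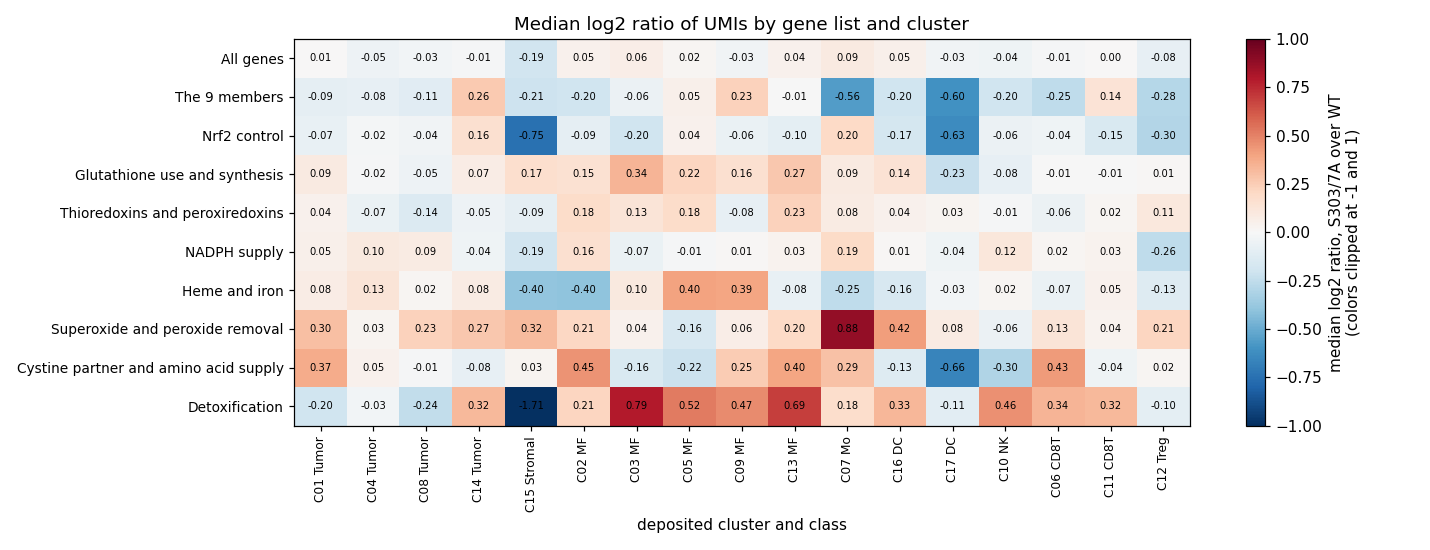
Median log2 ratio (color and printed value), S303/7A over WT, of all genes, of the 9 members and of 8 related gene lists in each compared cluster; medians use genes with at least 20 UMIs. The members have their lowest medians in dendritic cluster C17 (-0.60) and monocytes (-0.56) and their highest in C14 (0.26).

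Related lists held 65 measured genes, and their counts stand against 9.79% higher and 8.85% lower among all gene and cluster pairs. The list of Nrf2 control genes (Nfe2l2, Keap1, Bach1, the small Maf genes and others) had 2 of 123 gene and cluster pairs higher (1.63%) and 9 lower (7.32%). Nfe2l2 itself was at 1.19 in S303/7A and 1.21 in WT in monocytes, at 1.75 in S303/7A and 1.27 in WT in C14 (ratio 1.38), and at 1.20 in S303/7A and 1.76 in WT in macrophages C03 (ratio 0.680). It passed the fold downward in stromal cells (0.401) and in C17 (0.562). The glutathione list had 32 of 233 pairs higher (13.7%) and 18 lower (7.73%), and its most abundant genes Gpx1 and Gpx4, which spend glutathione on peroxides, had ratios of 1.11 and 0.790 in C14. Gstp1, a glutathione transferase, had 0.960 there. The thioredoxin and peroxiredoxin list had 20 of 178 pairs higher (11.2%) and 6 lower (3.37%). In monocytes Prdx2 was higher (3.11 in S303/7A and 1.98 in WT, ratio 1.57) and Prdx5 lower (18.03 in S303/7A and 27.5 in WT, ratio 0.656), and in C14 Prdx5 was higher (7.82 in S303/7A and 4.45 in WT, ratio 1.76).

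Sod2, the mitochondrial superoxide dismutase, lay on opposite sides in monocytes and C14. It stood at 1.77 in S303/7A and 4.40 in WT in monocytes, a ratio of 0.401, and at 1.82 in S303/7A and 0.816 in WT in C14, a ratio of 2.23. Sod1 and Cat (catalase) were higher in monocytes, with ratios of 1.91 and 1.84. Of NADPH suppliers, Tkt was higher in monocytes (3.41 in S303/7A and 2.24 in WT, ratio 1.52), and the list had 10 of 96 pairs higher (10.4%) and 3 lower (3.13%). The ferritin gene Fth1, which stores the iron that heme breakdown frees, was higher in C14 (205 in S303/7A and 128 in WT, ratio 1.60) and lower in macrophages C02 (133 in S303/7A and 217 in WT, ratio 0.614). The heme and iron list had 10 of 90 pairs higher (11.1%) and 3 lower (3.33%). Slc3a2, the partner chain of Slc7a11, was lower in C17 (2.06 in S303/7A and 3.25 in WT, ratio 0.634). Its list had 5 of 34 pairs higher (14.7%) and 1 lower (2.94%). The detoxification list had 13 of 50 pairs higher (26%) and 2 lower (4%), among them Ephx1, an epoxide hydrolase, in C14 (0.108 in S303/7A and 0.0684 in WT, ratio 1.58). On the lower side, Abcc1, a glutathione conjugate pump, had 2 UMIs in S303/7A and 23 in WT in stromal C15. Over clusters, the superoxide list had 8 of 51 higher (15.7%) and 4 lower (7.84%).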

How the data were processed

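Droplet libraries (10x Genomics 3′ version 2, per the labels' protocols) were processed with Cell Ranger and Seurat 3.0 on builds mm10 and GRCm38, per the submitters' processing notes; no source used here states the cell filters or how clusters were made. The authors deposited natural log values, ln(1 + UMIs per 100000 of a cell), with each cell's total UMI counts and gene counts, its mitochondrial percent (at most 9.98%), its library, 1 of 22 clusters and 1 of 11 classes. Undoing the log gave whole UMIs for 99.94% of nonzero values within 0.1 UMI, recovered gene numbers matched in 11456 cells, and totals differed by at most 3. All deposited cells were used, the shallowest with 538 UMIs.

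UMIs were summed per cluster and library, with exact Poisson intervals for levels and exact conditional (Clopper-Pearson) intervals for ratios. The ratio intervals were run on simulated Poisson counts, the model they assume, so that run cannot show how they fare with uneven counts over cells. Intervals cover counting error only. No p-value was made from cells. Limits for a count of 0 use 3 UMIs. Doublets were kept: Scrublet in scanpy 1.11.5 marked 0.0833% of S303/7A and 0.827% of WT cells by its automatic threshold, too few in S303/7A to rely on, and the alternative removed the 215 S303/7A and 361 WT cells of highest score. The libraries share 48 cell barcodes. Named genes are the 9 members, the 3 genes of most UMIs in each related list, and the 2 genes of highest Pearson correlation with a member over clusters, among genes with at least 0.5 UMIs per 10000 in a cluster of each library, of which 1 is not reported here. Clusters discussed were chosen after values were seen, and the members, lists and tests were chosen with earlier results of these data known. Python 3.11.15, numpy 2.4.6 and scipy 1.17.1 were used, with GENCODE and RefSeq annotations of GRCm38.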

Additional observations from a re-analysis of the deposited data

Results flagged for a closer look

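The ratio of UMIs, S303/7A over WT, lay past the fold in opposite directions in different clusters, with intervals that left out 1 on both sides, for 5 of the 9 genes. Slc7a11 also lay past it both ways, but the interval of its 1 higher ratio (1.55 in macrophages C13) held 1. The pair given for each gene is its highest and its lowest such ratio, and with 1 library per genotype the difference between clusters was not tested. Gsr had 4.28 in monocytes C07 and 0.258 in macrophages C03. Gclc had 2.23 in tumor cluster C14 and 0.290 in regulatory T cells C12. Gclm had 2.85 in dendritic cluster C16 and 0.321 in stromal cluster C15, of which the C15 value moved to 0.599 without the cell of most Gclm UMIs in each library. Srxn1 had 2.03 in CD8 T cluster C11 and 0.459 in macrophages C02. Hmox1 had 1.82 in macrophages C05 and 0.552 in macrophages C02.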

How the results depend on the processing

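The counts of 16 higher and 28 lower pairs became 10 and 17 as means over cells with a pseudocount of 0.1 per 10000, 4 and 11 with each cell thinned to 1000 UMIs (57 pairs then reached the minimum), 9 and 11 with at least 100 UMIs (83 pairs), and 5 and 12 with a fold of 2. The other 8 settings gave 11 to 19 higher and 21 to 31 lower. Of the 44 called pairs, 22 stayed past the fold on the same side under every alternative of cells and scaling that gave a value. As means over cells, 24 of the 44 stayed so with a pseudocount of 0.1 and 36 with one of 0.01. The Hmox1 ratio in C13 reversed to 1.07 without the cell of most Hmox1 UMIs in each library. Over the ratios of the 44 called pairs, 334 values under alternatives moved by less than their counting interval, 15 moved by more and 1 reversed. Ratios of the other pairs were not counted here, and some of them also changed side, such as Srxn1 in C14 when thinned. Of levels in leading clusters, 40 moved by less and 14 by more, mostly on thinning, which leaves few UMIs. Leaving out the cell of most UMIs and the 48 barcodes found in both libraries were chosen after seeing the data. Counts under 20 UMIs in most lymphocyte clusters limit what can be seen of Slc7a11 and Nqo1 there. No paired analysis was possible because each genotype has 1 library, and no replicate could be left out.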

Other observations

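Beyond the compared clusters, Hmox1 had few UMIs in small clusters C19 and C20, under the minimum of 20, so neither counts as higher. Plasmacytoid dendritic cluster C19 had 12 UMIs in S303/7A and 1 in WT, a ratio of 6.48 (0.959 to 277). Dendritic cluster C20 had 13 in S303/7A and 1 in WT, a ratio of 5.87 (0.882 to 250), and both intervals held 1. Summed macrophage markers there were 98.8 per 10000 in S303/7A and 44.1 in WT in C19, and 63.1 in S303/7A and 8.73 in WT in C20. In neutrophil cluster C18 Hmox1 had 64 UMIs in S303/7A, of which 39 lay in 1 cell, and 4 in WT. B cell cluster C21 had 0 Hmox1 UMIs in S303/7A and 2 in WT, and C22 had 2 in S303/7A and 0 in WT. Within the tumor class, the deposited copy number group CNV3 had more Gclm than CNV2 in both libraries: 0.538 per 10000 in S303/7A and 0.495 in WT for CNV3, and 0.340 in S303/7A and 0.294 in WT for CNV2. The 2 groups fall into clusters unequally, and in C01 alone CNV3 stood at 0.343 in S303/7A and 0.276 in WT, against CNV2 at 0.295 in S303/7A and 0.224 in WT. The group CNV1 of the tumor class reached 50 cells in WT alone (132 cells), and smaller groups were not given levels.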
